A study of Saccharomyces cerevisiae with 10 samples.

Results

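The genes described here encode the chaperones of the mitochondrial matrix in Saccharomyces cerevisiae, and they were taken by name: HSP60 (YLR259C), HSP10 (YOR020C), HSP78 (YDR258C), SSC1 (YJR045C), MDJ1 (YFL016C), MGE1 (YOR232W) and ECM10 (YEL030W). Each of the 7 genes had 1 probe set, assigned to that gene alone, and all 7 were among the 5365 genes tested of 5656 genes measured. The cells were commercial baker's yeast from fed-batch culture, for which the labels give no strain, genotype or ploidy. In every dried group, compressed cells on a metal tray were dried in an oven by blown air at 37 degrees, for 1, 2, 4 or 8 h, and the 0 h group was taken before drying. Each of the 5 times had 2 Affymetrix Yeast Genome S98 arrays, from experiments that the design text calls independent, which gives 10 arrays. Whether cultures, drying runs or only RNA preparations were repeated is not stated, so p-values measure the spread between these arrays. The question was how expression changed during air drying. No group analysed here was kept warm or kept waiting without drying, so heat, time in the oven and water loss cannot be told apart in any comparison with 0 h.

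Most mitochondrial proteins are made in the cytosol, and those bound for the matrix enter it unfolded, through translocases of the outer and inner membrane. Ssc1, the mitochondrial Hsp70, pulls them in and helps them fold, with Mdj1, its J-protein, stimulating its ATPase, and Mge1 exchanging its nucleotide. The Hsp60 chaperonin and its lid Hsp10 enclose a further set of proteins for folding. Hsp78, a matrix relative of the cytosolic disaggregase Hsp104, works with Ssc1 to recover aggregated proteins after heat. Ecm10 is a close relative of Ssc1 for which a minor role is known.

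Array medians of the deposited signal ran from 23.6 to 115.4, so each array was divided by its median, and values below are multiples of that median unless called log2. Multiples of different genes are not compared, because probe sets differ in affinity. Replicate 1 of 2 h and replicate 1 of 8 h were the dimmest arrays, with medians of 28.7 and 23.6. Actin probe sets for the 3' end read 6.64 and 6.44 times those for the 5' end there, where a higher ratio means less intact RNA, against 2.62 to 5.38 on the other 8 arrays. The 5.38 was that of 0 h replicate 1 (median 42.3), an array kept when the 2 dimmest are left out. Replicate 1 had the higher actin ratio at every time. Some values moved by over 1.5 times without the 2 dimmest arrays. Those of members, and of pairs over all dried arrays, are given both ways, beside the result or with the other settings. Correlations between the 2 arrays of a time lay between 0.942 and 0.980 across genes. Of 16 mating and haploid-specific genes tested (18 listed), which mark other kinds of yeast cell, 0 passed at any dried time against 0 h, and their summed level was 10.9 to 14.5 array medians at 0 h and 13.4 to 26.7 in dried cells. AGA2, an agglutinin subunit, had the lowest p of that list over the time course, but both of its 0 h arrays were at the floor of 0.1 array medians, so no fold is given. Medians of the mating list against 0 h, in log2 units, were 0.67 (1 h), 0.79 (2 h), 0.43 (4 h) and 0.32 (8 h). For 11 of 16 sporulation genes, of which 0 passed, the sums were 53.1 to 76.7 and 50.7 to 73.2, with SSP1, the gene of lowest p, at -3.30 on the dim array and -0.81 on the other at 8 h (log2 of the multiple). Their median change was -0.16 at 1 h. Their part in the results below was not tested. In bulk RNA such as this, fewer cells of a kind and less RNA per cell cannot be told apart.

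HSP78 was the member with the clearest change. It stood at 7.78 and 5.66 array medians on the 0 h arrays and at 25.3 and 23.5 after 1 h. At 2 h it stood at 15.3 and 11.1, at 4 h at 19.1 and 16.9, and at 8 h at 11.4 and 11.1. All 8 dried arrays lay above both 0 h arrays, which held for 4.49% of the genes tested and for 1 of the 7 members. The rise at 1 h was 1.88 ± 0.26 log2 units, or 3.67-fold (limma, SE, n = 2 arrays per time, Benjamini-Hochberg adjusted p = 0.00136), and it ranked 35 among the rises of all 5365 genes. At 4 h HSP78 was higher by 1.44 ± 0.26 (adjusted p = 0.0111), or 2.71-fold. At 2 h it stood 0.97 ± 0.26 above 0 h (adjusted p = 0.0897) and at 8 h 0.76 ± 0.26 above (adjusted p = 0.303), and neither passed. Averaged over the 4 dried times the difference from 0 h was 1.26 ± 0.21 (adjusted p = 0.00328), and the F test over all 4 times passed as well (adjusted p = 0.00529).

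The level of HSP78 was not held. The order of the times was 1 h, 4 h, 2 h, 8 h and 0 h, and within this order only 2 h and 8 h had overlapping arrays. Between 1 h and 8 h it fell by 1.12 log2 units (SE 0.26, limma adjusted p = 0.0294), which left it 2.17-fold below its 1 h level. Without the 2 dimmest arrays the 1 h rise was 1.88 (adjusted p = 0.000122), the 4 h rise 1.44 (adjusted p = 0.00125) and the change from 1 h to 8 h -1.14 (adjusted p = 0.0355). The fall from 1 h to 8 h was lost without either 1 h array (adjusted p = 0.271 and 0.161), without replicate 1 of 8 h (adjusted p = 0.108), with a floor of 0.5 (adjusted p = 0.0781) and without a variance trend (adjusted p = 0.0923). The 4 h call was lost without replicate 2 of 0 h (1.21 log2 units, adjusted p = 0.184) or without either 4 h array (adjusted p = 0.0853 and 0.0617), with a floor of 0.5 (adjusted p = 0.0782) and without a variance trend (adjusted p = 0.0669). The average over dried times was 1.03 without replicate 2 of 0 h (adjusted p = 0.166). With arrays left unscaled none of these calls held, and the 1 h change was 1.89.

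**Figure D1:**
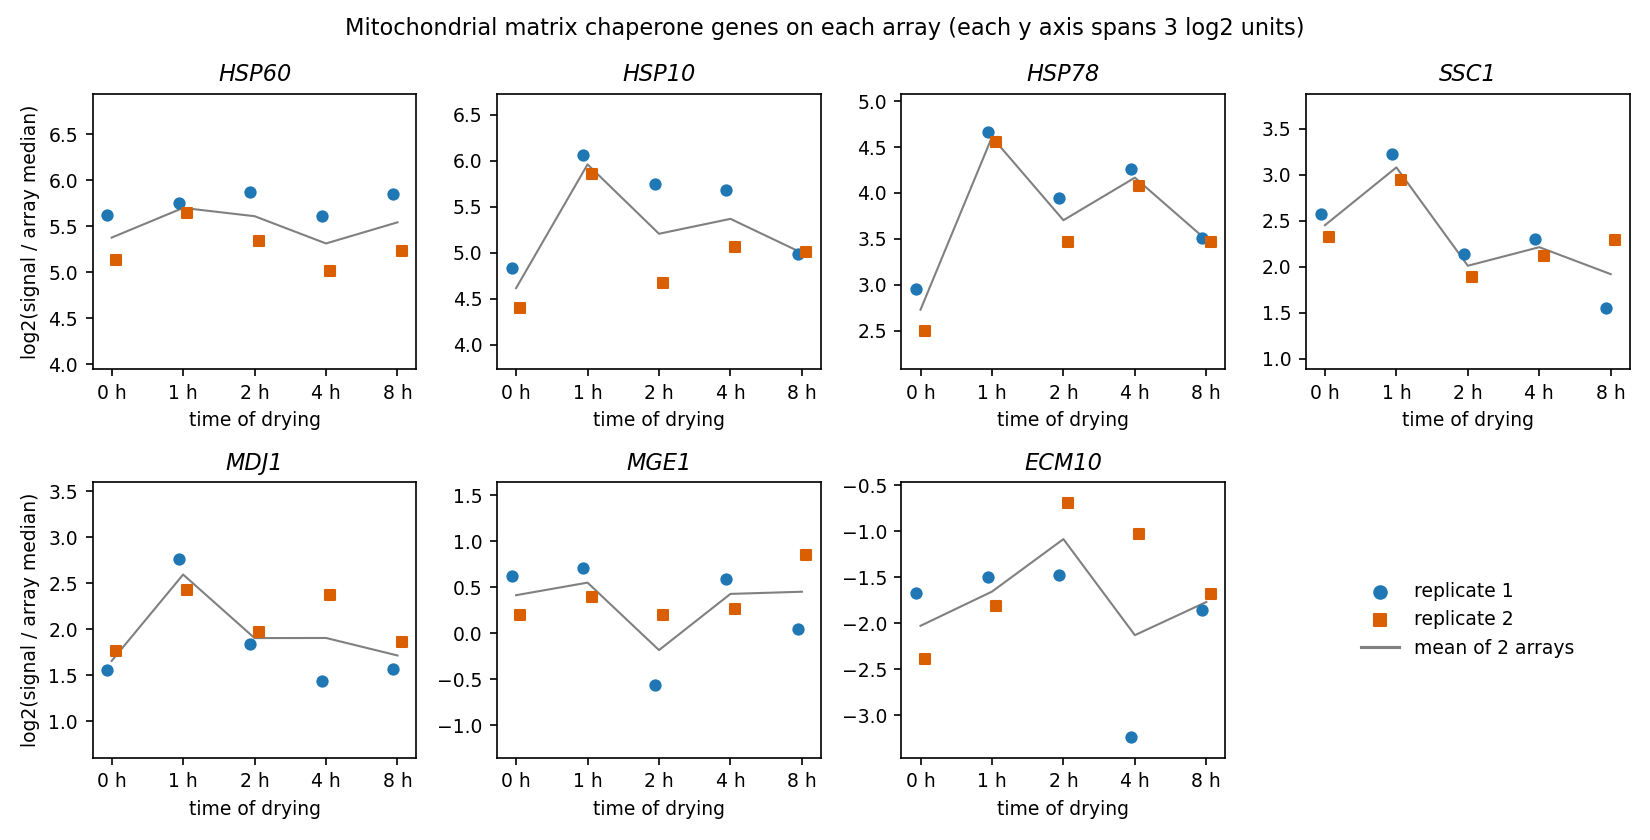
Signal of each of the 7 genes on each of the 10 arrays, as log2 of the multiple of the array median (y axis, spanning 3 log2 units in every panel), against time of drying (x axis). Points are single arrays and lines join the means of 2 arrays. HSP78 was above both of its 0 h values on all 8 dried arrays, SSC1 was highest at 1 h, and ECM10 had 4 h arrays that lay far apart.

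SSC1, the mitochondrial Hsp70, was highest at 1 h and lower afterwards. Its signal was 5.97 and 5.02 array medians at 0 h, 9.34 and 7.68 at 1 h, 4.41 and 3.69 at 2 h, 4.95 and 4.35 at 4 h, and 2.92 and 4.91 at 8 h. The 1 h arrays lay above both 0 h arrays, and the 2 h, 4 h and 8 h arrays lay below both. None of the changes against 0 h passed, at 0.63 ± 0.27 at 1 h (limma adjusted p = 0.311), -0.44 ± 0.27 at 2 h, -0.24 ± 0.27 at 4 h and -0.53 ± 0.27 at 8 h (adjusted p = 0.569). Without the dim replicate 1 of 8 h the last of these was -0.16. From 1 h to 8 h SSC1 fell by 1.16 log2 units (SE 0.27, adjusted p = 0.0301), or 2.24-fold. Most of that difference was present at 2 h, with a step from 1 h of -1.07 ± 0.27 that did not pass (adjusted p = 0.0656).

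The 8 h value of SSC1 rested on arrays that differed. The dim replicate 1 stood at 2.92 and replicate 2 at 4.91, and without replicate 1 of 8 h the fall from 1 h was -0.79 (limma adjusted p = 0.253). Without the 2 dimmest arrays it was also -0.79 (adjusted p = 0.138), while the step from 1 h to 2 h then passed for SSC1. The call was also lost without either 1 h array (adjusted p = 0.304 and 0.137) or either 0 h array (adjusted p = 0.0531 and 0.0522), without a filter on dim probe sets (adjusted p = 0.0577), fitted on 1 h and 8 h alone (adjusted p = 0.0693), with a floor of 0.5 (adjusted p = 0.11) and without a variance trend (adjusted p = 0.114). It was lost unscaled as well.

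Neither co-chaperone of Ssc1 passed against 0 h at any time. MDJ1, the J-protein, stood at 2.93 and 3.38 array medians at 0 h and at 6.78 and 5.37 at 1 h. It was at 3.57 and 3.91 at 2 h, 2.71 and 5.16 at 4 h, and 2.96 and 3.63 at 8 h. Both 1 h arrays were above all others of MDJ1, and the 0 h arrays overlapped those of 4 h and 8 h. The 1 h change of 0.94 ± 0.29 (95% interval 0.31 to 1.57) did not pass over all genes (limma adjusted p = 0.133), nor did the change of -0.88 ± 0.29 from 1 h to 8 h (adjusted p = 0.117). With array weights, and with only the 0 h and 1 h groups in the fit, the 1 h change passed (adjusted p = 0.0195 and 0.00579).

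MGE1, the nucleotide exchange factor, stood at 1.54 and 1.15 array medians at 0 h, 1.63 and 1.31 at 1 h, 0.676 and 1.15 at 2 h, 1.51 and 1.20 at 4 h, and 1.03 and 1.81 at 8 h. Its arrays overlapped those of 0 h at every time but 2 h, where replicate 1 was the lowest of the 10 values. Replicate 2 of 2 h was nearly tied with replicate 2 of 0 h, at 1.148 and 1.151 array medians. The largest difference from 0 h was -0.60 ± 0.35 at 2 h (95% interval -1.35 to 0.16, limma adjusted p = 0.511), and it was -0.22 without the 2 dimmest arrays. At 1 h the change was 0.14 ± 0.35, with an interval of -0.62 to 0.89 that leaves room for a change of the size seen for SSC1.

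Neither chaperonin subunit passed against 0 h at any time. HSP10, the lid, stood at 28.4 and 21.1 array medians at 0 h and at 66.9 and 58.0 at 1 h. It was at 53.6 and 25.4 at 2 h, 51.2 and 33.3 at 4 h, and 31.7 and 32.2 at 8 h. Both arrays were above both 0 h arrays at 1 h, 4 h and 8 h, whereas the 2 h arrays lay far apart, with the dim replicate 1 the higher. The 1 h change of 1.35 ± 0.36, or 2.54-fold (95% interval 0.58 to 2.12 log2 units), ranked 101 of 5365 but did not pass (limma adjusted p = 0.0701). It passed under 9 of 24 other settings, among them the one without the 2 dimmest arrays (adjusted p = 0.00528), and the adjusted p over all 24 ran from 0.00173 to 1. The later changes were 0.59 ± 0.36 at 2 h, 0.75 ± 0.36 at 4 h and 0.38 ± 0.36 at 8 h, none of which passed, and the 2 h change was 0.05 without the 2 dimmest arrays.

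HSP60, the chaperonin ring, stood at 49.2 and 35.1 array medians at 0 h, 54.1 and 49.9 at 1 h, 58.7 and 40.6 at 2 h, 48.9 and 32.3 at 4 h, and 57.9 and 37.5 at 8 h. The 1 h arrays lay above both 0 h arrays, the other times overlapped 0 h, and replicate 1 was the higher at all 5 times. The changes against 0 h lay between -0.06 and 0.32 (SE 0.34 each, limma adjusted p from 0.777 to 0.974). The 95% interval at 1 h was -0.41 to 1.06, so these arrays leave a rise of up to 1.06 log2 units possible. HSP60 is a bright probe set, and the 99th percentile of the signal, as a multiple of the median, was 131.0 and 138.3 on the 2 dimmest arrays and 67.0 to 98.6 on the others. The same 2 arrays had the highest HSP60 multiples, and the part of this in the result was not tested.

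ECM10, the relative of Ssc1, was dim on every array. Its signal was 0.314 and 0.191 array medians at 0 h, 0.354 and 0.284 at 1 h, 0.359 and 0.618 at 2 h, 0.106 and 0.491 at 4 h, and 0.275 and 0.312 at 8 h. None of these values was at the floor of 0.1, but no detection calls were used, and whether such values lie above background is not known. The 2 h arrays lay above both 0 h arrays, by 0.94 ± 0.74 log2 units on average (limma adjusted p = 0.653). The interval at 1 h ran from -1.21 to 1.95, the widest of the 7 genes, so nothing can be said of a change in ECM10 in either direction.

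**Figure D2:**
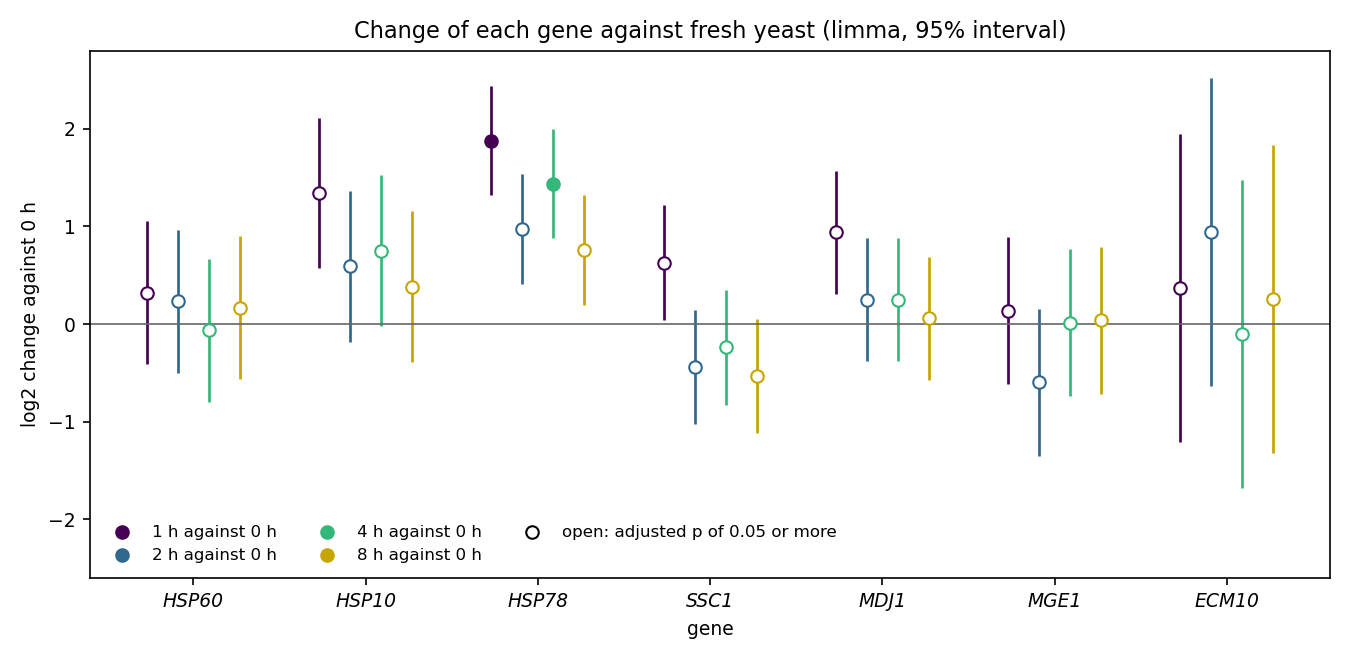
Change of each gene (x axis) against 0 h as log2 units (y axis) at 1, 2, 4 and 8 h, with 95% intervals from the limma fit. Filled points passed an adjusted p of 0.05 over all genes. HSP78 at 1 h and 4 h were the filled points, HSP10 at 1 h was the next highest, and ECM10 had the widest intervals.

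All 7 changes were above 0 at 1 h, and 5, 4 and 6 of 7 were above 0 at 2, 4 and 8 h, in comparisons that share the 0 h arrays. These counts are of sign alone, and the share of all genes above 0 is not given here. At 1 h the intervals of HSP60, MGE1 and ECM10 included 0, and the change of MGE1 turned direction in 3 of 24 other settings. The signs are therefore not evidence of a rise of all members. At 1 h, 1 of 7 rose (HSP78), 0 fell and 6 did not pass, where 2.61% of all genes passed and 2.22% rose. Their median change was 0.63 log2 units, and the median of all genes was 0.04. The arrays of 5 members (HSP60, HSP10, HSP78, SSC1 and MDJ1) lay wholly above those of 0 h, which 29.4% of all genes did. At 2 h, 0 of 7 passed, where 1.51% of genes did, 3 members (ECM10, HSP78 and MDJ1) lay wholly above 0 h, as 18.6% of genes did, and 2 (MGE1 and SSC1) wholly below, as 24.4% did. For MGE1 this rested on a near tie of 1.148 and 1.151 array medians. The members' change at 2 h had a median of 0.25 against -0.05 for all genes. At 4 h, 1 of 7 rose (HSP78), where 1.45% of genes passed and 1.08% rose, with a median of 0.01 against 0.02. HSP10 and HSP78 lay wholly above 0 h, as 25.5% of genes did, and SSC1 wholly below, as 18.8% did. At 8 h, 0 of 7 passed, where 0.951% of genes did, with a median of 0.17 against 0.01. The same 2 genes lay wholly above 0 h, as 19.3% of genes did, and SSC1 wholly below, as 16.9% did. Averaged over the dried times 1 of 7 rose, where 2.11% of genes passed and 1.36% rose, and in the F test 1 of 7 passed, where 3.28% of genes did. Members were taken by name, with earlier results of these data known, so these counts are a description.

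Later times were also set against 1 h directly. From 1 h to 2 h the change was below 0 for 6 of 7 members, with a median of -0.73 against -0.12 for all genes, and 0 passed, where 1.85% of genes did. The arrays of 5 members lay wholly below those of 1 h, as 30.2% of genes did. Without the 2 dimmest arrays 3 members passed in this step, HSP10, HSP78 and SSC1, where 7.46% of all genes then passed. From 2 h to 4 h and from 4 h to 8 h 0 of 7 members passed by limma, where 0% and 0.0186% of genes did (399 and 400 genes were under 0.05 before adjustment). HSP78 stood at -0.68 at 8 h relative to 4 h (limma adjusted p = 0.588). From 1 h to 8 h all 7 changes were below 0, with a median of -0.88 against -0.06 for all genes. The intervals of HSP60, MGE1 and ECM10 included 0 over this step as well. HSP78 and SSC1 fell, 2 of 7, where 3.45% of genes passed and 2.42% fell. The arrays of 4 members (HSP10, HSP78, MDJ1 and SSC1) lay wholly below, as 27.5% of genes did. HSP10 stood at -0.96 ± 0.36 relative to 1 h (limma adjusted p = 0.162) and HSP60 at -0.16 ± 0.34. These comparisons share the 1 h arrays, and the 1 h mean was the highest of the 5 times for each member but ECM10. For HSP60 and MGE1 the 1 h arrays overlapped those of the next highest time. Without the 2 dimmest arrays MGE1 was 0.30 log2 units higher at 8 h than at 1 h.

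Members were set against their partners and against counterparts in other compartments, as the log2 difference between the 2 genes on each array. Dried arrays (n = 8) were compared with 0 h arrays (n = 2) by a two-sided exact permutation test, whose smallest possible p is 0.0222, and 10 pairs were compared. HSP78 minus SSC1 was 1.41 log2 units higher on the dried arrays, with differences of 0.17 and 0.38 at 0 h and of 1.18 to 1.96 on the dried arrays, which did not overlap. SSC1 minus KAR2, the Hsp70 of the endoplasmic reticulum, stood at -0.79 relative to 0 h, with differences of -2.06 and -1.70 at 0 h and of -2.95 to -2.43 on the dried arrays, again with no overlap. Each of these pairs had the smallest possible p, 0.0222 in the exact permutation test, and an adjusted p of 0.111 over the 10 pairs. At least 5 pairs would have had to reach that p for any to pass.

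The other pairs did not separate the dried from the fresh arrays. HSP60 minus HSP10 differed from 0 h by -0.60 over the dried arrays (exact permutation p = 0.111, adjusted p = 0.222), with -1.02 at 1 h and -0.22 at 8 h. The 8 h arrays disagreed, with HSP60 minus HSP10 at 0.869 on the dim replicate 1 and 0.219 on replicate 2. At 0 h it was 0.790 and 0.733. HSP78 minus HSP104, the cytosolic disaggregase, differed by -0.64 (exact permutation p = 0.0889, adjusted p = 0.222), HSP104 averaging 1.90 above 0 h and HSP78 1.26. SSC1 differed from MDJ1 by -0.52 and from MGE1 by -0.04, where single times ran from 0.49 at 1 h to -0.57 at 8 h. HSP60 and TCP1, a subunit of the cytosolic chaperonin, differed in change by 0.13, and MDJ1 and YDJ1, a cytosolic J-protein, by 0.21 (adjusted p = 0.716 and 0.694, exact permutation test). SSC1 differed by -0.51 from ECM10 and by -0.31 from HSP60 (adjusted p = 0.694 each, exact permutation test). The difference from HSP60 was -0.047 without the 2 dimmest arrays, and that from ECM10 was -0.18 with a floor of 0.5. Without the 2 dimmest arrays the difference of HSP60 from TCP1 was 0.065 and that of SSC1 from MGE1 was -0.079.

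**Figure D3:**
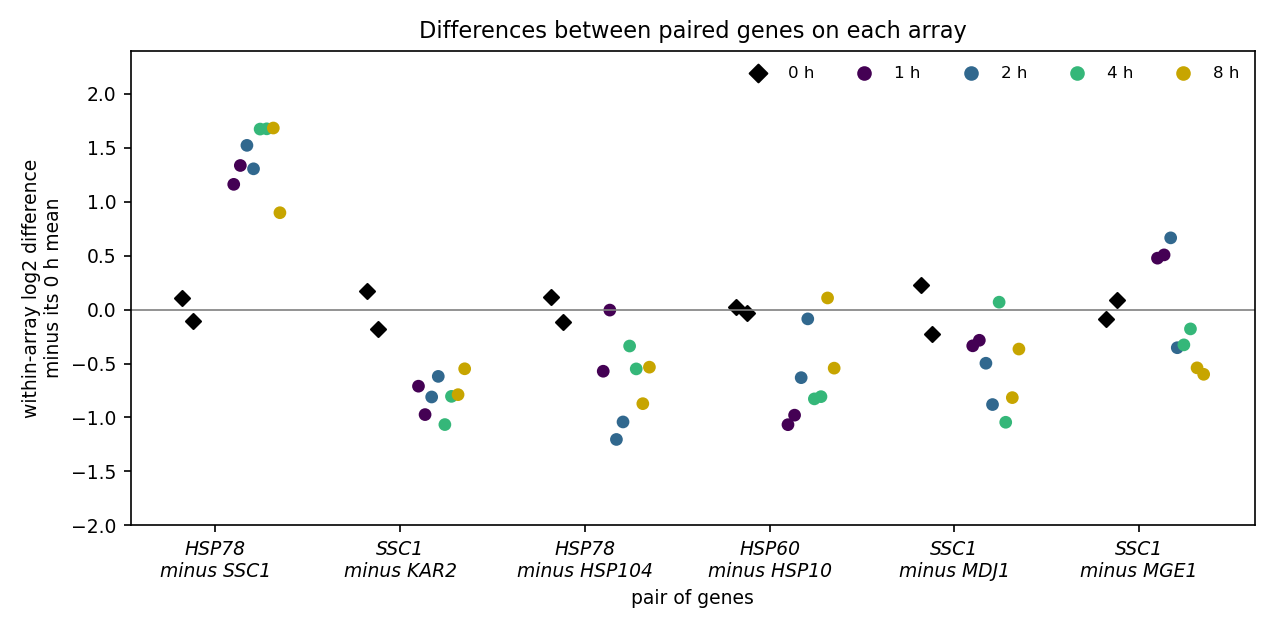
Difference between 2 genes on each array, as log2 units after subtracting its 0 h mean (y axis), for 6 pairs of genes (x axis). Diamonds are the 2 arrays of 0 h and circles the 8 dried arrays, coloured by time. The dried arrays lie apart from 0 h for HSP78 minus SSC1 and for SSC1 minus KAR2, and they overlap 0 h for the other 4 pairs.

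Lists of other genes of mitochondrial import and quality control were set beside the members, as a description. Of all genes tested, 2.61%, 1.51%, 1.45% and 0.951% passed against 0 h at 1, 2, 4 and 8 h. In the presequence translocase and import motor, the machinery that Ssc1 drives, 0 of 9 genes passed at any dried time against 0 h, with a median of 0.02 at 1 h and -0.25 at 8 h. Its lowest p over the time course was that of TIM21, a translocase subunit, at 0.83 ± 0.31 at 1 h. The outer membrane translocase and sorting machinery had 0 of 12 passing and a median of -0.09 at 1 h, where the lowest p was that of TOM71, a receptor for incoming proteins. TOM71 did not pass, and at 2 h its log2 multiple was -2.61 on replicate 2 and at the floor on the dim replicate 1, against -1.40 and -0.52 at 0 h. The carrier translocase and intermembrane space import list had 0 of 10 and a median of 0.17, TIM18 being at 0.75 ± 0.25 at 1 h. Of 19 mitochondrial protease and prohibitin genes, 0 passed against 0 h, with a median of 0.23 at 1 h. Between 1 h and 8 h, 2 of these 19 fell, where 2.42% of all genes did. They were OMA1, an inner membrane protease (-0.93 ± 0.24, limma adjusted p = 0.0488), and PHB1, a prohibitin named after its value was seen (-1.17 ± 0.30, adjusted p = 0.0463). Of 14 other mitochondrial chaperones and assembly factors (15 listed), 0 passed and the median at 1 h was -0.29, CBP6, a factor for cytochrome b synthesis, having the lowest p over the time course, at 0.40 ± 0.30 at 1 h and -0.64 ± 0.30 at 8 h.

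Chaperones of other compartments were set beside these lists. Of 18 cytosolic and nuclear chaperone genes, listed as inducible, 11 rose at 1 h, where 2.22% of all genes did. Their median was 1.35 log2 units. At 2, 4 and 8 h, 4, 5 and 4 of the 18 were higher, where 0.82%, 1.08% and 0.503% of all genes were. By the lowest p over the time course the called genes of this list were led by SSA4 and SSA3, inducible Hsp70 genes (4.15 ± 0.31 and 3.07 ± 0.22 at 1 h), HSP82, an Hsp90 (2.61 ± 0.33), and HSP104 (2.17 ± 0.30). HSP104 was still higher by 1.46 ± 0.30 at 8 h (limma adjusted p = 0.0367), where HSP78 was at 0.76. Between 1 h and 8 h, 7 of these 18 fell, with a median of -1.18, where 2.42% of all genes fell. YDJ1 rose by 1.18 ± 0.27 at 1 h (adjusted p = 0.0332) and stood at -0.53 ± 0.27 at 8 h. In the endoplasmic reticulum Hsp70 system 1 of 7 rose at 1 h, KAR2 at 1.47 ± 0.29 (adjusted p = 0.0139), and the median was 0.00306. The cytosolic chaperonin had 0 of 8 passing and a median of -0.04 at 1 h, its lowest p over the time course being that of CCT3, at 0.40 ± 0.24 at 1 h. Cross-hybridisation among the similar Hsp70 genes was not examined.

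**Figure D4:**
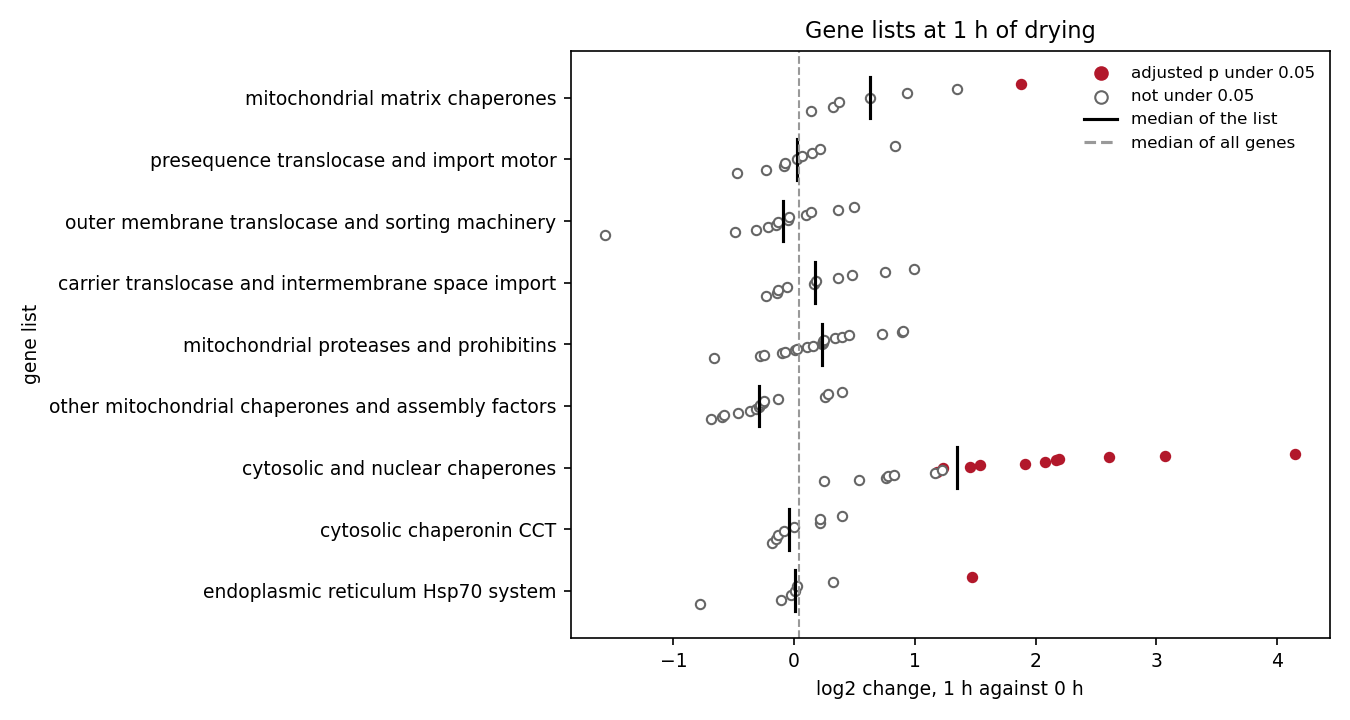
Change of each gene at 1 h against 0 h, in log2 units (x axis), by gene list (y axis). Filled points passed an adjusted p of 0.05 over all genes, the black bars are list medians and the dashed line is the median of all genes. The matrix chaperones had a median of 0.63, where the cytosolic and nuclear chaperones had 1.35 and the other mitochondrial lists -0.29 to 0.23.

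Likeness of profile was measured by Pearson correlation of log2 values over the 10 arrays, as a description, with arrays that share their scaling and their RNA. For HSP78, the closest genes outside the members were ZEO1 (r = 0.972), HSP82 (r = 0.968), AKR1 (r = 0.957) and YLR108C (r = 0.956), and their changes at 1 h were 1.34, 2.61, 1.19 and 2.18 log2 units. For SSC1 they were RRT13 (r = 0.971), TMC1 (r = 0.956), SSE2 (r = 0.956) and LST7 (r = 0.954), with changes of 0.47, 0.57, 0.82 and 0.39 at 1 h and of -0.35, -0.85, -0.38 and -0.53 at 8 h. Among the members themselves, HSP10 and HSP78 had the highest correlation of the 21 pairs (r = 0.906). HSP60 correlated with HSP10 at r = 0.609, SSC1 with MDJ1 at r = 0.613 and SSC1 with MGE1 at r = 0.498.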

How the data were processed

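Signal intensity was measured on 10 Affymetrix arrays. The deposited values were linear intensities, 1 per probe set and array. Per the submitters' processing notes the authors used GCOS, and its version is not given in the sources used here. The labels describe median scaling for a ratio table, and the array medians here differed, so it was not in these values. Of 9335 probe sets, 60 controls were left out. Platform annotation assigned 6504 probe sets to 1 gene, 328 to several and 2443 to none, and current symbols came from the R64 table by gene identifier, from which no coordinates were used. Each array was divided by its median, floored at 0.1 of it and converted to log2. Genes with a mean under -2.32 (0.2 of the median) were left out, and the brightest probe set stood for each gene. All 10 arrays were fitted with limma 3.58.1 in R 4.3.3 (group means, eBayes with trend, two-sided p, Benjamini-Hochberg over 5365 genes, threshold 0.05), after tests on simulated data. Intervals of 95% use the same fit, and each SE draws on all arrays. The number of arrays limits precision. The members and lists were chosen with earlier results of these data known. Named genes were the members, their partners in the pairs, up to 4 called genes of each list by F test (otherwise the 1 with the lowest p), and the 4 genes most like HSP78 and SSC1. Promoter motifs were planned and are not reported here, as sequences were not used.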

Additional observations from a re-analysis of the deposited data

Results flagged for a closer look

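The changes against 0 h of 2 members differed between 1 h and 8 h in a direct test of the difference (limma, adjusted over all genes). Of all genes, 3.45% passed and 2.42% fell over that interval. HSP78 changed by -1.12 log2 units from 1 h to 8 h and SSC1 by -1.16, calls lost in 6 and 11 of 24 other settings. A difference between 1 h and 8 h was also called for other named genes, which share these arrays. Changes of those genes were not recomputed under other settings. SSA3 changed by -1.98, HSP82 by -1.56, KAR2 by -1.33, SSA4 by -1.25 and OMA1 by -0.93 over the same interval. YDJ1 changed by -1.71 and PHB1, named after its value was seen, by -1.17. Between 1 h and 2 h SSA3 changed by -1.09 and YDJ1 by -1.31. With 2 arrays per time, single arrays were not screened for outlying values within a group.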

How the results depend on the processing

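Member changes and counts were recomputed under up to 24 other settings, 10 of which left out 1 array, and the pair differences under 19. The other gene lists and the correlations were not recomputed. Of 991 recomputed member changes, 905 kept their direction and side of the threshold, 26 lost a call, 16 gained one and 44 turned direction, none of these 44 having passed. Most of the 991 had no call to lose. Of 24 settings, HSP78 lost its call in 6 at 4 h and in 6 from 1 h to 8 h. Its average over dried times lost it in 2 of 23, and SSC1 from 1 h to 8 h in 11 of 24. HSP78 at 1 h passed in 23 of 24 settings, the exception being unscaled arrays, and ran from 1.65 to 2.11. The causes below were not tested. Members called at 1 h numbered 2 with quantile normalization, cyclic loess or a filter at the array median. Of all genes, 3.04%, 2.6% and 4.06% then passed, against 2.61%. HSP10 also passed at 1 h without the dimmest arrays and without some single arrays. Its 1 h change ran from 1.13 to 1.56 with 1 array left out. Members called at 1 h numbered 3 with array weights or only the compared groups (where 9.34% and 9.88% of all genes passed), and 0 unscaled. At 2 h they numbered 1 with quantile normalization, 75th percentile scaling or cyclic loess, where 3.04%, 1.68% and 2.64% of all genes passed, against 1.51%. At 4 h they numbered 0 unscaled, with a floor of 0.5 or with no variance trend, and 0 to 1 with 1 array left out. In the F test they numbered 2 with quantile normalization, 3 with array weights or without the dimmest arrays (4.42%, 7.57% and 10.2% of all genes passing, against 3.28%), 0 unscaled, with a floor of 0.5 or with no variance trend, and 0 to 2 with 1 array left out. From 1 h to 2 h they numbered 1 with the filter at the median or array weights, 3 without the dimmest arrays, and 0 to 1 with 1 array left out. From 1 h to 8 h they numbered 0 unscaled, with a floor of 0.5 or with no variance trend. Of all genes, 0%, 0.919% and 1.14% then passed, against 3.45%. With no filter or only the compared groups they numbered 1, where 1.94% and 2.24% of all genes passed. Without the dimmest arrays and without some single arrays fewer passed, as given above for HSP78 and SSC1. Members called over this interval numbered 3 with quantile normalization, where HSP10 passed too (adjusted p = 0.0257 by limma). Over all dried arrays they numbered 0 unscaled and 0 to 1 with 1 array left out.

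The replicate numbers were not taken to pair the arrays: deviations of same-numbered arrays correlated at -0.06 to 0.17 over 10 pairs of times, 4 of them above 0.1. With the replicate number as a block, 2 members were called at 1 h and 1 at 2 h. Of all genes, 2.65% and 2.31% then passed, against 2.61% and 1.51%. The other counts of members were unchanged.

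None of the changes that turned direction had passed, and the largest was HSP10 at 2 h (0.59). Unscaled, ECM10 was 0.27 and HSP60 0.19 and SSC1 0.015 at 4 h, HSP10 was -0.034, HSP60 -0.39 and MDJ1 -0.38 at 2 h, HSP60 was -0.14, MDJ1 -0.25 and MGE1 -0.27 at 8 h, and HSP60 averaged -0.0015 over dried times. Without the dimmest arrays HSP60 was -0.033 at 2 h, -0.15 at 8 h, -0.47 from 1 h to 8 h and 0.020 on average, MDJ1 was 0.21 and MGE1 0.44 at 8 h, SSC1 averaged -0.084, ECM10 was -0.023 from 1 h to 8 h, and MGE1 was 0.30 from 1 h to 8 h and 0.094 on average. With 75th percentile scaling ECM10 was 0.041 and MGE1 0.054 from 1 h to 8 h, and MGE1 was -0.0086 at 1 h and -0.014 at 4 h. MGE1 was -0.0043 at 4 h with cyclic loess and -0.0053 at 8 h with quantile normalization. With 1 array left out, ECM10 ran from -1.21 to 1.00 at 4 h, -0.10 to 0.62 at 8 h and -0.27 to 0.048 from 1 h to 8 h. HSP60 ran from -0.033 to 0.50 at 2 h, -0.36 to 0.24 at 4 h, -0.15 to 0.48 at 8 h, -0.47 to 0.16 from 1 h to 8 h and -0.079 to 0.41 on average. MDJ1 ran from -0.22 to 0.71 at 4 h and -0.090 to 0.21 at 8 h. MGE1 ran from -0.074 to 0.35 at 1 h, -0.20 to 0.22 at 4 h, -0.37 to 0.44 at 8 h, -0.50 to 0.30 from 1 h to 8 h and -0.31 to 0.11 on average. The pair differences ran from -0.054 to 0.48 for MDJ1 and YDJ1 and -0.14 to 0.042 for SSC1 and MGE1. 

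Counts over all genes ran from 1 (unscaled) to 530 (only the compared groups) at 1 h, where 140 were called, from 0 to 252 at 2 h (81), 0 to 232 at 4 h (78), 0 to 186 at 8 h (51) 0 to 474 from 1 h to 8 h (185), 0 to 400 from 1 h to 2 h (99), 1 to 545 in the F test (176) and 1 to 229 over all dried arrays (113). From 1 h to 2 h, 3.21% of all genes passed with the filter at the median and 2.74% with array weights, against 1.85%. From 1 h to 8 h, 4.49% passed with quantile normalization, against 3.45%. Unscaled, with a floor of 0.5 and with no variance trend, 0%, 0.106% and 0.503% passed at 4 h, against 1.45%. In the F test the same settings gave 0.0186%, 0.301% and 0.261%, against 3.28%. Without scaling the median of all genes moved to -0.66 at 2 h, 0.27 at 4 h and -0.28 at 8 h, and 75th percentile scaling moved it at 1 h from 0.04 to -0.11. With a floor of 0.5, ECM10 gave no value in 4 comparisons. ECM10 fell under the filter at the array median. With only the compared groups no F test or average was made. With 1 array left out, the lone array was assumed to vary like the other groups. Dim probe sets such as ECM10 limit what can be detected.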
